A study of Mus musculus with 2 samples.

Results

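Major urinary protein (Mup) genes were described through every probe set whose platform annotation named a symbol of the form Mup followed by a number. This rule took 4 of 45037 probe sets, which named 3 of the 18193 genes on the array: Mup10 and Mup5 by 1 probe set each and Mup3 by 2. No probe set named several Mup genes, and 0 named Mup20, so that gene was not analysed here. The family was picked because Mup10 was among the highest ratios of knockout over wild type, so the ratios below are a description and nothing was tested.

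Precancerous liver was taken from a Pik3caTg;Kdm3aKO mouse group and a Pik3caTg;Kdm3aWT mouse group, each represented by 1 Affymetrix expression array. Both carried a Pik3ca transgene active in hepatocytes, which encodes the catalytic subunit of phosphoinositide 3-kinase, and both were kept on regular chow. They differed in Kdm3a, the gene of an enzyme that removes methyl groups from lysine 9 of histone H3, which was either knocked out or wild type. The promoter of the transgene, the cells that lack Kdm3a, and the age, sex and number of animals behind an array are not given in the labels. With 1 array in each group there was no replicate check, no error between animals and no p-value, and no statement about the genotypes in general follows.

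Kdm3a had a signal of 61.6 in the knockout array, against 720 in the wild-type array, a level 11.7-fold lower by its 1 probe set. Where the deletion lies relative to that probe set is not given in the labels, so this checks them only in part. The median signal over all probe sets was 76.4 in the knockout array and 71.7 in the wild-type array. All 13 measured hepatocyte markers were well above the floor described below on both arrays, as the tissue label states.

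MUPs are small lipocalins, barrel-shaped proteins that carry hydrophobic molecules in a central pocket. Mouse hepatocytes secrete them into blood, the kidney filters them, and in urine they bind volatile pheromones and release them slowly. In mouse liver their messenger RNA is more abundant in males, and it depends on pulsatile growth hormone acting through the receptor, the kinase JAK2 and the transcription factor STAT5B. Mup20 encodes darcin, a male pheromone protein of mouse urine. The genes stand in a dense cluster of recent duplicates, so that members are hard to tell apart by hybridisation.

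In the RefSeq annotation of GRCm38.p6, 22 Mup genes were listed, and all of them were on chromosome 4. They made up 22 of the 24 protein-coding genes from the first to the last Mup gene. In this order Mup20 lay between Mup5 and Mup3, and Mup10 lay further off, as number 8 of the 22 by start position, where Mup5 was number 19 and Mup3 number 21. The array's named probe sets thus cover 3 of 22 family genes by name, but may read RNA of relatives. Both Mup3 probe sets have names ending in _x_at, an ending given to probe sets in which some probes also match other sequences. The Mup5 and Mup10 probe sets end in plain _at.

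The promoters of Mup10 and Mup3 are shown because they belong to genes that differed in the same direction and show how alike family members are outside the coding region. They are the 250 bases before the RefSeq start of each gene on the minus strand, in GRCm38.p6, at chr4:60582156-60582405 for Mup10 and chr4:62087318-62087567 for Mup3. The capitals mark, on either strand, the TATA box sequence TATATAA and the core ATCAAT, which ONECUT factors such as HNF6 bind.
Mup10: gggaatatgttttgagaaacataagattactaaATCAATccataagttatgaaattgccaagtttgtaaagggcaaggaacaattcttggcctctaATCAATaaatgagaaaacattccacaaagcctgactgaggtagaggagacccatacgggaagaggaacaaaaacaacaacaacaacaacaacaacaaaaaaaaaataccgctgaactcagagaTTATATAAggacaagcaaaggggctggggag
Mup3: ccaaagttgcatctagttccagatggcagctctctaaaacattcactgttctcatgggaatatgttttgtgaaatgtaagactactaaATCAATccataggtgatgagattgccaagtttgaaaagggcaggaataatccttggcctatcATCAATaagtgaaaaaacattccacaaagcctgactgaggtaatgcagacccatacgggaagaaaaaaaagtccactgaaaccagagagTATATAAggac

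The promoter table held 14 of the 22 Mup genes, and Mup5 and Mup20 were not among them. Over 195 aligned bases, the Mup10 and Mup3 promoters were 88.7% identical. Mup10 was 86.8% to 96.8% identical to the 13 others, with a median of 95.5%, and Mup3 was 82.4% to 93.9% identical to the 13 others, with a median of 88.3%. By these medians, Mup10 was closer to the other promoters in the table than Mup3 was.

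The ONECUT core ATCAAT was found at 2 places in each of the 14 Mup promoters, against at least 1 place in 6.72% of all 32851 promoter windows of the same length. TATATAA was found in 11 of 14 Mup promoters and in 3.04% of all windows. The last base of the window being -1, the ONECUT cores began at -217 and -154 in Mup10 and at -162 and -100 in Mup3. The forward TATATAA began at -30 in Mup10, where it overlapped a copy on the other strand, and at -11 in Mup3. The FOXA motif TGTTTNC was found in 13 of 14 Mup promoters, with Mup3 the exception, and in 17.8% of all windows. The C/EBP motif TTGNGNAA was found in 13 of 14, Mup10 and Mup3 among them, and in 11.7%. The STAT5 motif TTCNNNGAA was found in 0 of 14 Mup promoters and in 7.02% of all windows. That says only that these letters are not within 250 bases of the start. The Mup promoters are close copies of each other and do not count as separate cases, and the motifs were chosen with the sequences in view.

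All Mup probe sets had higher signal in the knockout array, and Mup10 had the highest of the 3 ratios measured on both arrays. Signals are MAS5 units on a linear scale, and they are compared here between arrays for the same probe set only. Signals under 46.6, the 40th percentile of the values pooled over the arrays, were raised to that floor before a ratio was taken. A ratio with a raised value is therefore a bound.

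Mup10 was read at 1178 in the knockout array, against 115 in the wild-type array. The knockout signal was thus 10.2-fold higher, a log2 ratio of 3.35. The wild-type value was 2.48 times the floor, so both ends of this ratio were measured. Among the 11693 genes compared, Mup10 had log2 ratio number 5 from the top, with 0.0342% of genes above it.

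Mup5, a member also known from mouse exocrine glands, was read at 2427 in the knockout array, against 517 in the wild-type array. It was 4.69-fold higher in the knockout, a log2 ratio of 2.23, and 0.248% of genes had a higher one.

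Mup3, a member expressed in mouse liver, was read by probe sets 1427631_x_at and 1427249_x_at. The first had a signal of 30035 in the knockout array, against 10871 in the wild-type array. This is a 2.76-fold higher level and a log2 ratio of 1.47, and 1.15% of genes stood above it. The second had a signal of 177 in the knockout array, against 1.04 in the wild-type array, which is far below the floor. Its ratio is a bound, at least 3.79-fold higher, or at least 1.92 on the log2 scale. Both Mup3 probe sets were thus higher in the knockout array, and the lower of their ratios belongs to the probe set measured on both arrays.

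**Figure D1:**
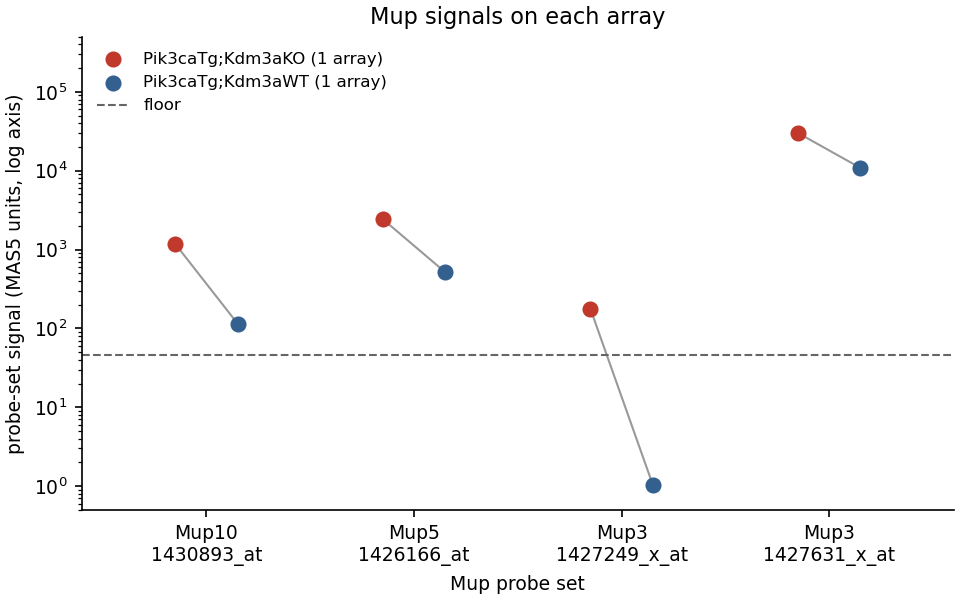
Signal of each Mup probe set (MAS5 units, log axis) in the Pik3caTg;Kdm3aKO array (red, left) and the Pik3caTg;Kdm3aWT array (blue, right), with 1 array in each group, lines joining the values of a probe set and a dashed line at the floor of 46.6. Every red point lies above its blue point, and the wild-type value of Mup3 1427249_x_at is below the dashed line.

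Of the 4 Mup probe sets, 4 had knockout signals at least 2-fold higher and 0 at least 2-fold lower. The background was 5.22% of 22519 probe sets higher and 7.93% lower, and with scaling on poly-A controls 8.18% were higher. All 4 passed the filter on low signal, a mean over both arrays of at least 73.7. Mup3 1427249_x_at passed through its knockout signal alone, and with this floor and filter it could not have lain within 2-fold. Since the family was picked on this contrast, the count is not evidence about the family. The median log2 ratio of the Mup probe sets was at least 2.08, against 0.01 over all probe sets past the filter. It is a bound because the ratio of Mup3 1427249_x_at enters it, and it counts Mup3 by both of its probe sets.

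The nearest thing to a repeat measurement within these arrays is the spread among probe sets that name the same gene. It was an SD of 0.446 in log2 ratio over 4958 genes, with ratios that are bounds included. This spread mixes error of measurement with real differences between the sequences that such probe sets read. An error shared by a whole array and differences between animals are not in it. Mup10 and Mup5 differed by 1.12 in log2 ratio, 2.52 times that SD. The SD is of single ratios, and a difference between ratios spreads more widely, so this multiple overstates the separation. Mup10 was also picked for its high ratio. Mup5 exceeded the bound of Mup3 1427249_x_at by 0.31 and thus by less than 1 SD, but since that bound may lie anywhere below the true ratio, these have no order. The Mup3 probe sets differed by at least 0.46.

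**Figure D2:**
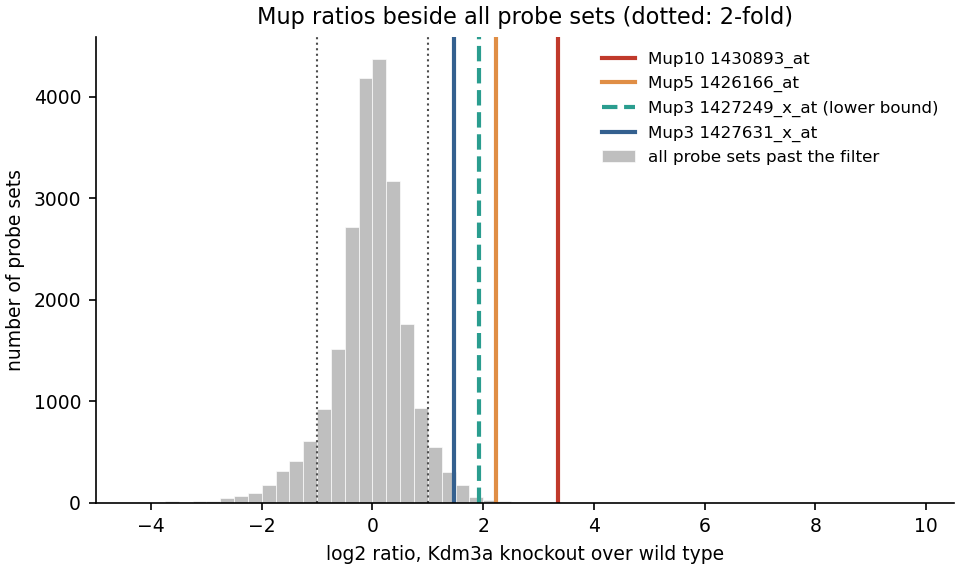
Number of probe sets past the filter by log2 ratio of knockout over wild type in steps of 0.25, with coloured lines at the 4 Mup probe sets and dotted lines at 2-fold. The Mup lines stand at 1.47, 1.92 (a lower bound), 2.23 and 3.35, right of the 2-fold line and of nearly all other probe sets.

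The ratios kept their direction under 5 other scalings and under 3 other floors. Across these settings Mup10 lay between 3.20 and 3.54, Mup5 between 2.10 and 2.41 and Mup3 1427631_x_at between 1.26 and 1.65 on the log2 scale. Mup3 1427249_x_at was set by the floor. A floor at the 60th percentile gave a log2 ratio of 0.46, a floor at the 20th gave 3.69 and none gave 7.40, so that its size is not known beyond the bound. The hybridisation controls had a median log2 ratio of 0.13 and the poly-A controls of -0.18. Scaling on them shifts the knockout signals by that amount in the opposite direction. Ratios whose knockout signal stays above the floor shift equally, and others need not.

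**Figure D3:**
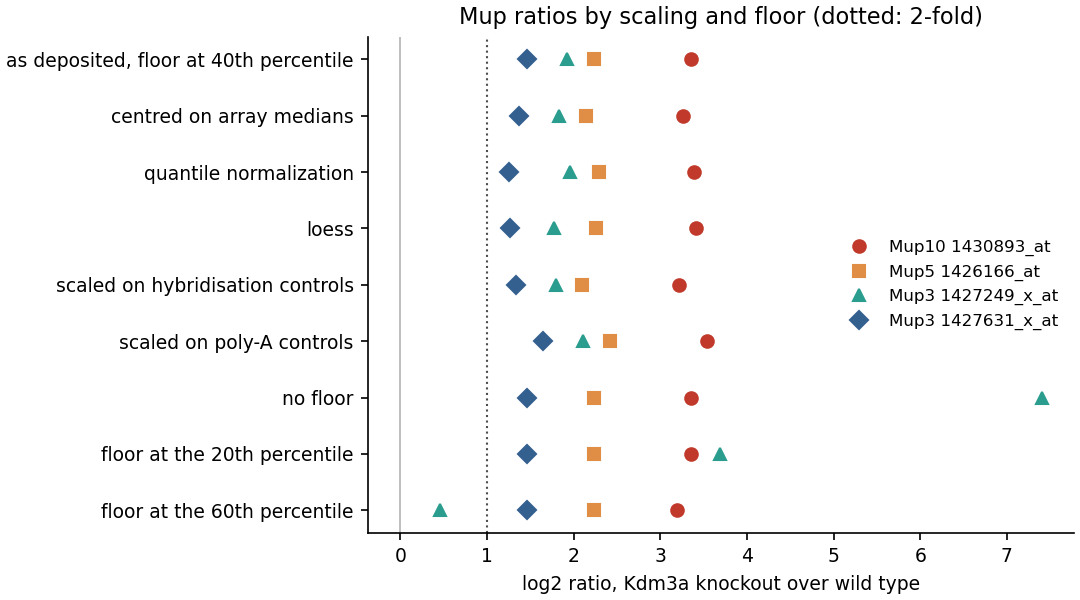
Log2 ratio of each Mup probe set under each scaling and floor, with the dotted line at 2-fold. Mup10, Mup5 and Mup3 1427631_x_at hardly move, whereas Mup3 1427249_x_at runs between 0.46 and 7.40 as the floor is lowered.

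The genes outside the family with log2 ratios nearest that of Mup10, by absolute difference over these 2 arrays, were Ighm, Slc15a2 and Gm6958. Ighm, the immunoglobulin heavy chain of IgM, had signals of 1371 in the knockout array and 126 in the wild-type array, a log2 ratio of 3.44. Its 5 probe sets ranged between 0.19 and 3.44. Slc15a2, a peptide transporter, had 1236 in the knockout array and 100.5 in the wild-type array, a log2 ratio of 3.62, but its 3 probe sets ranged between -0.06 and 3.62. Gm6958 had 390 in the knockout array and 47.4 in the wild-type array, a log2 ratio of 3.04. Likeness over 2 arrays is likeness of a single ratio.

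Genes on a list of abundant liver proteins outside the family lay within 2-fold, and how far they were higher in the knockout array depended on the scaling. This does not hold for every bright liver gene, as the values of Hpd and Igf1 below show. Of 18 measured genes of abundant secreted liver proteins other than Mup, 18 had a positive ratio and 0 reached 2-fold, with a median log2 ratio of 0.35 against -0.02 over all genes. They ranged between 0.18 for the glycoprotein Ahsg and 0.53 for the fibrinogen chain Fgg. The albumin gene Alb had signals of 53356 in the knockout array and 44119 in the wild-type array, a log2 ratio of 0.27. The transthyretin gene Ttr, whose product carries thyroid hormone, had a log2 ratio of 0.31. After quantile normalization 14 of the 18 were positive, with a median of 0.05 against 0.02 over all genes, and after loess 13 were, with a median of 0.07 against -0.04. Fabp1 and Ttpa, whose products bind lipids inside the cell, stand on this list with the secreted proteins. The signals of the 18 lay between 27523 for Fga and 75018 for Fabp1 in the knockout array, where that of Fabp1 was the highest signal on that array. Arrays can compress ratios near the top of their range, so these sizes cannot be ranked against the Mup ratios. Mup3 1427631_x_at, at 30035 in the knockout array, lay within this signal range too. Whether compression occurred here was not tested.

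Among 13 measured hepatocyte markers, 13 had a positive ratio and 2 were at least 2-fold higher, the tyrosine-degrading enzymes Tat (1.22) and Hpd. Hpd had signals of 50886 in the knockout array and 25381 in the wild-type array. The summed signal of the 13 markers was 597885 in the knockout array and 437652 in the wild-type array, 1.37 times as high. After quantile normalization 11 of the 13 had a positive ratio and after loess 10 did, with Tat alone past 2-fold, and the sum was then 1.12 and 1.13 times as high. Most markers of bile duct cells and of matrix-producing cells were lower. Past 2-fold, 8 of 9 cholangiocyte markers were lower, including Cd24a (-3.40) and Tspan8 (-2.96), and the sum of the 9 was 1227 in the knockout array and 6778 in the wild-type array. The 3 probe sets of Tspan8 ranged between -2.96 and 0.69, and the 2 of Epcam between -1.75 and -0.08. Krt23 (0.04) lay within 2-fold. For stellate cells and fibroblasts, 9 of 12 markers were lower past 2-fold, including the collagens Col3a1 (-3.56) and Col1a2 (-3.21), with sums of 17402 in the knockout array and 42065 in the wild-type array. Reln (0.03), Dcn (-0.32) and Lrat (-0.85) lay within 2-fold. Several lower markers of these 2 lists, such as Krt19 at 63.4 and Des at 63.2, were near the floor in the knockout array. Over all genes, 3.83% were at least 2-fold higher and 8.96% at least 2-fold lower. The part of cell composition in the Mup ratios was not tested, and in such tissue fewer cells of a type and less RNA per cell cannot be told apart.

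Macrophage markers past 2-fold numbered 6 lower and 3 higher of 13, beside 8.96% lower and 3.83% higher over all genes. Their sums were 30145 in the knockout array and 44273 in the wild-type array. The 6 lower markers included Gpnmb (-4.12), Trem2 (-2.38), Cd68 (-2.11) and C1qb (-1.37). The 3 higher markers, Cd163, Marco and Timd4, had wild-type signals under the floor and so could not have counted as within 2-fold. Vsig4 (0.84) and Clec4f (0.73), above the floor on both arrays, were also higher but within 2-fold. The list thus went in both directions, which its sums do not show. Of 10 endothelial markers, 1 was lower, Vwf (-1.20), and 0 were higher, with sums of 8993 in the knockout array and 9614 in the wild-type array. Of 7 measured T, NK and B cell markers, 2 were lower and 1 higher, the antibody joining chain Jchain (1.99), with sums of 1174 in the knockout array and 954 in the wild-type array. With scaling on the hybridisation controls the sums were 1007 in the knockout array and 1017 in the wild-type array, a ratio of 0.990. That scaling leaves the wild-type signals as they are, so the probe sets read for this list also changed, and the lower ratio is not due to scaling alone.

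Because Mup5 and its relatives are also made in mouse exocrine glands, markers of lacrimal, salivary and mammary secretory cells were read. Of 8 such genes on the array, 1 passed the filter, the amylase gene Amy1, which liver also expresses, at 18551 in the knockout array and 9374 in the wild-type array. The gland markers Pip, Prol1 and Smgc were below the floor on both arrays by all of their probe sets, and the other 4 genes did not pass the filter.

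Mup messages are male-biased, so other sex-biased genes are given beside them. Of 18 measured male-biased genes outside the family, 10 were past 2-fold higher and 0 past 2-fold lower, against 3.83% and 8.96% of all genes. The list's median log2 ratio was 1.06. The list was written with earlier results of these arrays known, so this count is not independent support. Cyp2u1, under the floor in the wild-type array, is among the 10 and could not have counted as unchanged by the 2-fold rule. With scaling on the hybridisation controls, 17 were measured, of which 6 were higher and 1 lower. Serpina4-ps1, a pseudogene of the serpin family (4.01), led, before the fatty acid elongase Elovl3 (2.86), the organic anion carrier Slco1a1 (2.37) and Susd4 (2.07). Elovl3 had signals of 2274 in the knockout array and 313 in the wild-type array, and Slco1a1 had 1262 in the knockout array and 244 in the wild-type array. The list was not uniform, for Nat8f5 (-0.87) and the fatty acid hydroxylase Cyp4a12a (-0.84) had lower signals in the knockout array, and Ugt2b1 (0.06) and Gstp1 (0.09) were near 0.

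Past 2-fold, 3 of 16 measured female-biased genes were higher and 2 lower, against 3.83% and 8.96% of all genes. The list's median log2 ratio was 0.23. The highest were Hamp2, a hepcidin gene (2.57), the drug-oxidising Cyp2b10 (1.98), the transporter Slc22a26 (1.27) and Cyp2b9 (0.70). The lowest were the lipoprotein lipase Lpl (-1.87), Prom1 (-1.83), also a cholangiocyte marker, Rtn4 (-0.67) and Fmo4 (-0.41). The 5 probe sets of Rtn4 ranged between -1.46 and 0.16. Genes of both sex biases thus had members past 2-fold upward. The Y-linked Eif2s3y was read at 2906 in the knockout array and 2468 in the wild-type array, and Kdm5d, also Y-linked, at 495 in the knockout array and 459 in the wild-type array. Xist, the X inactivation RNA of female cells, was read near the floor, at 72.4 in the knockout array and 83.0 in the wild-type array. The Y-linked Uty was read by 2 probe sets, at 813 and 210.5 in the knockout array, against 814 and 319 in the wild-type array, so that the dimmer one had a log2 ratio of -0.60. All of these genes lay within 2-fold. These sex chromosome genes were chosen after values had been seen.

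Past 2-fold, 2 of 14 measured genes of growth hormone receptor signalling were higher and 0 lower, against 3.83% and 8.96% of all genes. The list's median log2 ratio was 0.00. The higher genes encode circulating products of the pathway: Igfals, the carrier subunit of insulin-like growth factor (1.18), and Igf1 itself (1.09). Igf1 had signals of 19213 in the knockout array and 9040 in the wild-type array, and its 4 probe sets ranged between 0.94 and 1.20. After quantile normalization or loess, and with scaling on array medians or hybridisation controls, 1 of them reached 2-fold. The receptor Ghr (0.82) was next, with signals of 27425 in the knockout array and 15489 in the wild-type array, and its 3 probe sets ranged between 0.41 and 1.25. Jak2 (-0.25), Stat5a (-0.14) and Stat5b (-0.11), the kinase and transcription factors downstream, lay within 2-fold. The feedback inhibitors Cish (-0.59) and Socs3 (-0.45) were lowest and Socs2 stood at 0.32, with 4 probe sets between -0.82 and 0.88.

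Of 17 measured regulators described for Mup or sex-biased liver genes, 3 were past 2-fold higher and 0 past 2-fold lower, against 3.83% and 8.96% of all genes. The list's median log2 ratio was 0.30. Bcl6, a repressor that is higher in male mouse liver, had signals of 1450 in the knockout array and 492 in the wild-type array, a log2 ratio of 1.56, and its 2 probe sets stood at 1.44 and 1.56. Onecut1, which encodes HNF6, had a log2 ratio of 1.34 by its brighter probe set and -0.87 by the other, so its direction is not settled. The retinoic acid receptor gene Rarg had 1.27. Cux2, a female-biased repressor of male-biased genes, had signals of 236 in the knockout array and 285 in the wild-type array, the lowest log2 ratio of this list at -0.27. Trim24 (-0.09), Foxa1 (-0.01) and Onecut2 (0.02) were next. Zhx2, described as a regulator of Mup genes in mouse liver, stood at 0.21.

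Other lipocalins differed in both directions. Of 10 measured, 1 was at least 2-fold higher, 3 were at least 2-fold lower and 6 lay within 2-fold, with a median log2 ratio of 0.04. The shares over all genes were 3.83% higher and 8.96% lower. The lower genes were Lcn2, an acute phase binder of iron carriers (-3.69), the orosomucoid Orm2 (-3.20) and the prostaglandin synthase Ptgds, at least 4.10-fold lower. Ptgds was under the floor in the knockout array and passed the filter through its wild-type signal alone, so it had to count as lower. The list's median was -0.24 after quantile normalization and -0.22 after loess. Lcn2 had signals of 2050 in the knockout array and 26441 in the wild-type array. The higher gene was Obp2a, an odorant-binding protein (1.20) that also stands on the male-biased list, at 244 in the knockout array and 106 in the wild-type array. C8g (0.85), Apom (0.56) and the retinol carrier Rbp4 (0.38), lipocalins secreted by liver, lay within 2-fold.

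**Figure D4:**
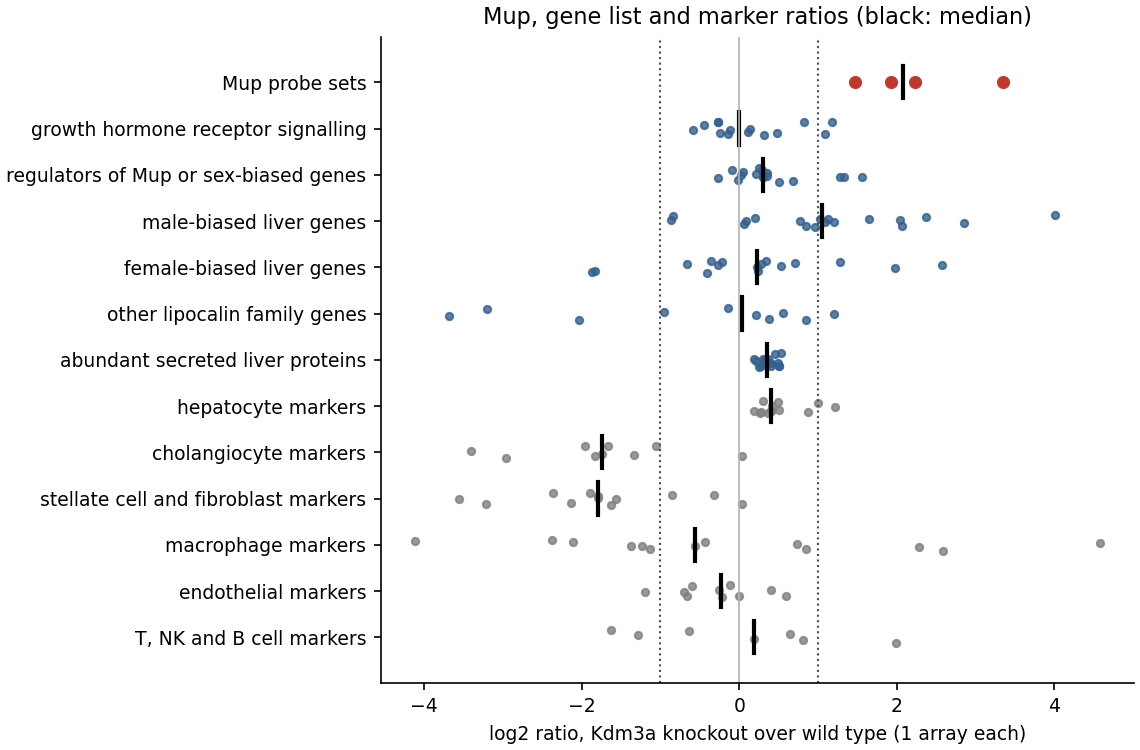
Log2 ratio of knockout over wild type for the Mup probe sets (red), the genes of each list (blue) and the markers of each cell type with at least 5 measured genes (grey), with black bars at medians and dotted lines at 2-fold. The Mup probe sets have a median of at least 2.08, since a bound enters it. The median is 1.06 for male-biased genes and 0.35 for abundant secreted liver proteins, whose high signals may be compressed, so these sizes are not ranked. Cholangiocyte and fibroblast markers lie mostly below -1.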

How the data were processed

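Per the labels' protocols, total RNA of mouse liver was extracted and 250 ng of it was made into biotin-labelled cRNA by the Affymetrix procedure. The authors deposited 1 intensity value for each probe set and array, linear and not logged. MAS5, which summarises the probes of a probe set, is named in the submitters' processing notes without settings or version. Trimmed by 2% at either end, both arrays had a mean of 500.004, so they had been brought to the same level by the authors.

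Of 45101 probe sets, 64 were controls. Names came from the annotation of the platform, in which 34945 probe sets have 1 gene and 932 have several, while 9160 are not listed. Gene identifiers of 34741 of the first were found in a RefSeq table of GRCm38.p6, used for current names. A gene with several probe sets past the filter took the value of the brightest. The floor, the filter (the median of mean signals) and the 2-fold size rule are given with the results. Log2 ratios are knockout over wild type. The steps were tested on simulated data.

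Samples were grouped by genotype label. Alternatives were 5 scalings (array medians, quantile, loess with a span of 0.300, hybridisation and poly-A controls), floors, filters, size rules, the mean of probe sets, and leaving out probe sets named _s_at, _x_at, _a_at or _f_at. The genes named are all Mup probe sets, Kdm3a, in each list at most the 4 highest and 4 lowest and the 3 genes nearest Mup10 in ratio. Other list members named were chosen after values were seen. The members and lists were chosen with earlier results of these data known. Promoters are from RefSeq, GRCm38.p6, and were aligned end to end with free end gaps (Biopython 1.88). Ratios used Python 3.11.15 and statsmodels 0.14.6.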

Additional observations from a re-analysis of the deposited data

How the results depend on the processing

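Under every scaling, filter, floor and size rule tried, the Mup probe sets that were counted had positive log2 ratios. The number at least 2-fold higher was 4, and it was 3 with a floor at the 60th percentile, a filter at the 70th percentile or a 3-fold rule. Leaving out probe sets with cross-matching name endings removed both of Mup3, so that 2 were higher. The Mup median log2 ratio, a bound of 2.08, was 2.79 with no floor, with a floor at the 20th percentile and without the cross-matching probe sets. Every median of the 6 gene lists moved by less than 0.446, but that of the abundant liver proteins, 0.35, lay between 0.05 after quantile normalization and 0.54 with scaling on poly-A controls.

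Of 240 list values under the alternatives, 220 stayed within the limits set (a count within 1.5 times, a median within 0.446). These limits were wide, for 0.446 is larger than every list median except that of the male-biased genes. The lipocalin median counted as within them at 0.04 and at -0.24. Counts that stayed at 0 are also included, so the 220 is not a measure of robustness. Growth hormone receptor genes at least 2-fold higher numbered 1 after centring on medians, quantile normalization, loess or scaling on hybridisation controls, against 2 as given, and 0 were 3-fold higher. With scaling on poly-A controls 3 of them were higher, and with a 1.5-fold rule 3 were higher and 1 was lower. Male-biased genes higher numbered 6, against 10, with scaling on hybridisation controls, a filter at the 70th percentile or a 3-fold rule. The count rose to 12 with scaling on poly-A controls and to 13 with a 1.5-fold rule, within the limits set. Male-biased genes lower numbered 1 with scaling on hybridisation controls and 2 with a 1.5-fold rule, against 0. Regulators higher numbered 1 with a filter at the 70th percentile and 0 with a 3-fold rule, against 3. Other lipocalins higher numbered 2 with scaling on poly-A controls or a 1.5-fold rule and 0 with a floor at the 60th percentile, a filter at the 70th or a 3-fold rule, against 1. Without cross-matching probe sets, 1 lipocalin and 1 female-biased gene were lower, against 3 and 2. A stricter rule or filter counts fewer genes by construction, and a looser rule counts more. For the scalings the cause was not tested.

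No paired analysis was possible because each group had 1 array. The number of arrays limits the precision, and no detection calls were used here.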
